A study of Mus musculus with 28 samples.

Results

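Regulatory T cells (Tregs) that infiltrated mouse B16 melanomas, a transplanted skin tumor, were compared by their surface level of OX40, a receptor of the TNF receptor family. The comparison took every tumor sample of the study: 8 of 14 samples, of which 4 were OX40plus and 4 were OX40minus Tregs. The other 6 samples were Tregs from spleens, 3 per gate, and serve here only to ask whether a tumor difference was unlike the spleen one. All mice, in both gates, were Foxp3-GFP animals, in which the locus of the Treg transcription factor Foxp3 drives green fluorescent protein. B16 cells had been implanted into the skin, and 7 to 10 days later tumors were digested and GFP-positive cells with high or low OX40 were sorted with antibodies to CD45, CD3, CD4 and OX40. The titles number the mice 1 to 4 in each gate, so each mouse gave a high and a low sample from its tumor. Age and sex of the animals and the number of cells sorted were not stated in any source consulted.

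OX40 is absent from most resting T cells and appears on the surface after antigen stimulation. Foxp3-positive Tregs carry it constitutively, and when its ligand binds, adaptor proteins of the TRAF family recruit kinases that switch on NF-kB. Tregs that have responded to antigen in a tissue divide, change their homing receptors and carry suppressive molecules, whereas resting Tregs keep the transcription factors and exit receptors of circulating lymphocytes.

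RNA was sequenced from 2 libraries of each mouse and gate, 16 in all. The 2 libraries of a sample differed by slightly more than sampling noise (chi-square with a median over genes of 0.555 to 0.578, where noise alone gives 0.455) and by far less than mice of 1 group (4.43 to 12.8). They carry 1 mouse number and gate, so they were averaged and counted as 1 sample. Depth was between 2.37e+07 and 2.96e+07 estimated counts per sample, and 3 counts corresponded to 0.104 to 0.13 CPM, a gene's counts scaled to a common library total, which is the unit used below. In the OX40plus group, mouse 4 was the least like its companions (chi-square 6.91 to 12.8, against 4.71 to 6.59 among the others). Its share of mitochondrial transcripts was 0.906%, against 0.538% to 0.649% in the other 7 samples, and its share of ribosomal protein transcripts was 3.24%, against 2.22% to 2.68% in the other OX40plus and 1.69% to 1.82% in the OX40minus samples. Both gates held T cell transcripts as their label says. Cd3e, a subunit of the T cell receptor complex, was at 859.6 to 1050 CPM in OX40plus and 1084 to 1103 CPM in OX40minus samples. These are bulk samples, so fewer cells of a type and less RNA per cell cannot be told apart. That holds for every difference below.

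The gates differed at a large share of genes. Of 10437 genes tested with limma's moderated linear model, 2125 (20.4%) were called higher and 2026 (19.4%) lower in OX40plus Tregs at a Benjamini-Hochberg adjusted p under 0.05. The median log2 fold change over all tested genes was -0.04. Lower calls reached further from 0: 710 genes were lower and 473 higher by at least 1 on the log2 scale, and 210 were lower and 37 higher by at least 2. Of the 4151 called genes, 3607 had 4 OX40plus values that did not overlap the 4 OX40minus values (4002 of all tested genes, or 38.3%), and 3973 changed in the same direction in all 4 mice. A gene without overlap changes in the same direction whichever mice are paired, so the last count largely follows from the first. The first principal component held 43.3% of the variance and separated the gates, while the second (15.5%) spread the OX40plus mice, with mouse 1 at 58.4 and mouse 4 at -34.3. Without OX40plus mouse 4 the counts were 2104 higher and 1987 lower. The labels do not say how separately the tumors were handled, so the p-values measure the spread between these 4 animals per gate. Every adjusted p below comes from this fit unless another is named.

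**Figure D1:**
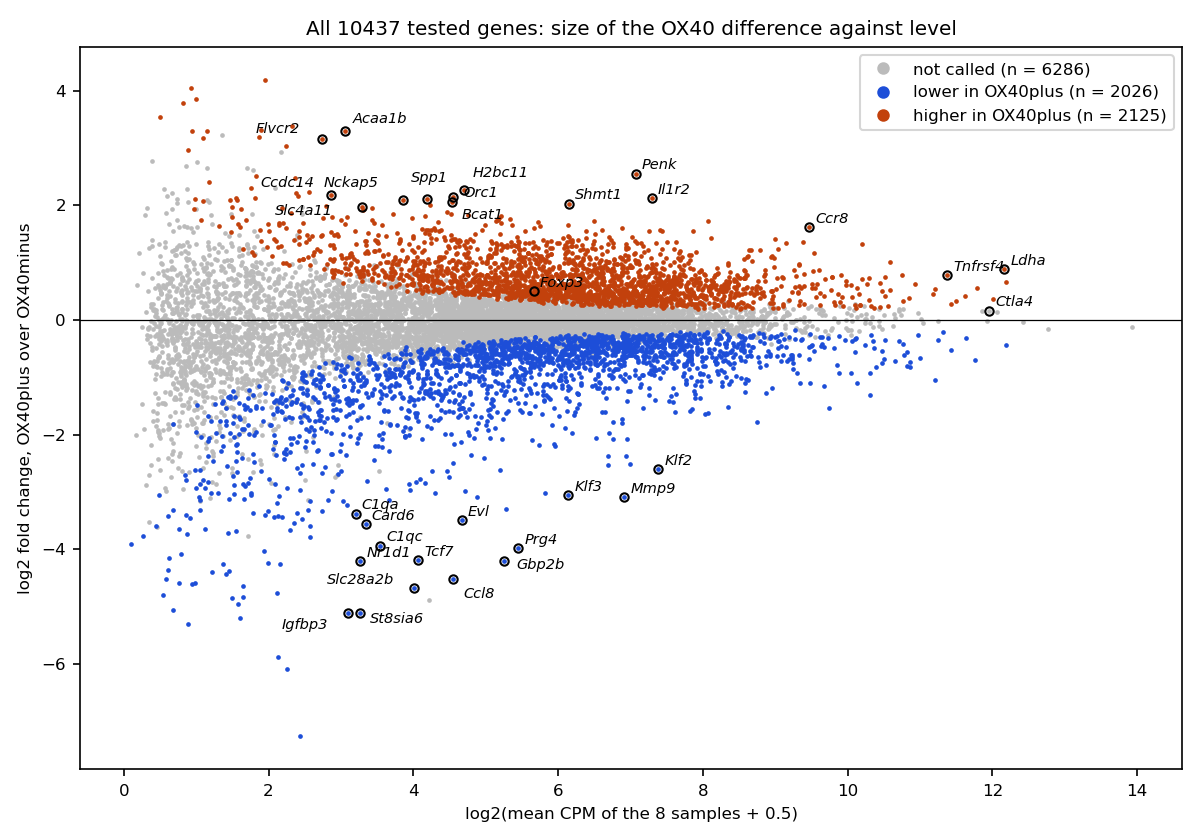
Each point is 1 of the 10437 tested genes, with its level (log2 of the mean CPM of the 8 samples plus 0.5) on the x axis and its log2 fold change, OX40plus over OX40minus, on the y axis. Orange points are the 2125 genes called higher, blue points the 2026 called lower and grey points the rest; open circles mark genes named in the text.

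The gene of the sorted receptor was higher in OX40plus Tregs, and genes of Treg identity moved in both directions. Tnfrsf4, which encodes OX40 (chromosome 4, 156013595 to 156016613), was at 3471, 3206, 3166 and 3584 CPM in OX40plus Tregs of mice 1 to 4 and at 2159, 1862, 1964 and 1816 CPM in OX40minus Tregs. The groups did not overlap (log2 fold change 0.78 ± 0.07 SE, adjusted p = 4.69e-06). Foxp3 (chromosome X, 7579676 to 7595243) was at 52.9, 60.7, 58.4 and 62.0 CPM against 39.3, 44.2, 34.3 and 49.7 CPM. All 4 OX40plus values lay above the highest OX40minus value (0.51 ± 0.13 SE, adjusted p = 0.00924), although that difference was not called when the spleen samples shared the estimate of spread (adjusted p = 0.22). Il2ra, the alpha chain of the interleukin-2 receptor that Tregs use to take up the cytokine (chromosome 2, 11642792 to 11693194), was at 1552, 1427, 1398 and 1616 CPM against 1003, 884, 993 and 1013 CPM (0.62 ± 0.07 SE, adjusted p = 2.61e-05). The gamma chain gene Il2rg went the other way, with 1523, 1502, 1414 and 1396 CPM in OX40plus and 2131, 2057, 2234 and 2149.7 CPM in OX40minus samples (-0.55 ± 0.06 SE, adjusted p = 1.7e-05).

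Nrp1, a semaphorin co-receptor that marks thymus-derived Tregs (chromosome 8, 128358591 to 128505476), separated the gates most widely within that list. Its values were 50.8, 43.7, 57.2 and 39.4 CPM in OX40plus and 187, 198, 198 and 213 CPM in OX40minus Tregs (-2.07 ± 0.12 SE, adjusted p = 1.95e-07). Dgka, a diacylglycerol kinase that damps T cell receptor signals (-1.28), and Socs2, a feedback inhibitor of cytokine signals (-1.19), were lower as well. Of the 17 tested genes of Treg identity, 3 were higher, 5 lower and 9 not called, with a median log2 fold change of -0.11 against -0.04 over all genes. The higher share was no larger than the 20.4% of all tested genes. Among those not called, Ctla4, the inhibitory receptor gene, was at 3889.6, 4339.6, 4148 and 4343 against 3618, 3979, 4009.9 and 3372 CPM, and Ikzf2, the Helios gene, at 859.9, 726, 795 and 1043 against 788, 759, 693 and 797 CPM. In each, values of the gates overlapped (Ctla4 0.16 ± 0.07 SE, adjusted p = 0.0914; Ikzf2 0.16 ± 0.10 SE, adjusted p = 0.22). Icos, a costimulatory receptor gene, was not called either (0.19 ± 0.07 SE, adjusted p = 0.0613), though its OX40plus samples (1812, 1669, 1646 and 2054 CPM) did not overlap the OX40minus ones (1615, 1539.5, 1569 and 1556 CPM), and it passed with median-of-ratios scaling (adjusted p = 0.0479).

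**Figure D2:**
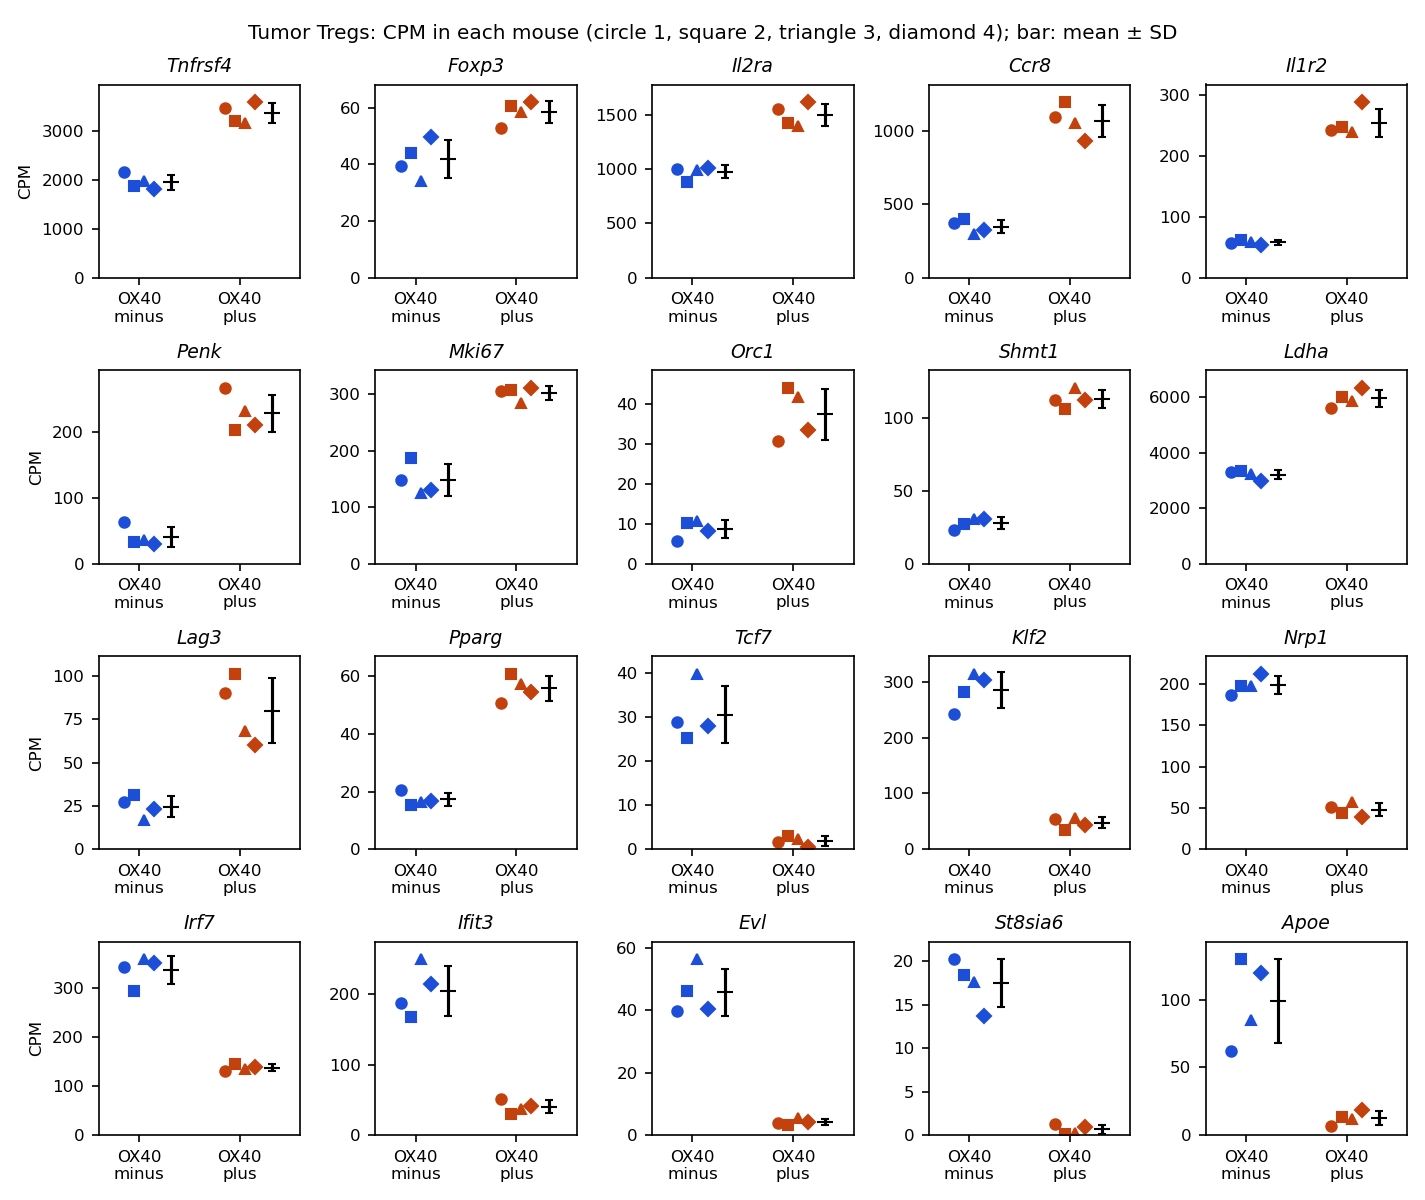
CPM of 20 named genes in each tumor sample, with OX40minus in blue and OX40plus in orange, 1 marker shape per mouse and the mean ± SD (n = 4) as a black bar. In each panel the 4 OX40plus values lie on 1 side of the 4 OX40minus values, above them for the first 12 genes and below them for the last 8.

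Relatives of OX40 in the TNF receptor family moved in both directions. Of 17 receptors tested, OX40 itself included, 3 were higher and 7 lower (median -0.46), beside 20.4% and 19.4% of all tested genes. The higher ones were Tnfrsf4, whose protein was sorted on, Tnfrsf8 and Tnfrsf9. Tnfrsf8, which encodes CD30, a receptor of activated lymphocytes, was at 150, 121, 123 and 113 CPM against 43.4, 49.3, 52.9 and 58.2 CPM (1.32 ± 0.12 SE, adjusted p = 4.95e-06). Tnfrsf9, the gene of the costimulatory receptor CD137, was at 3383, 2992, 3042 and 3480.5 CPM against 2807, 2338, 2613 and 2532 CPM, a smaller difference without overlap (0.33 ± 0.08 SE, adjusted p = 0.00393). Tnfrsf18, which encodes GITR, was not called (0.20 ± 0.08 SE, adjusted p = 0.0701). The death-domain receptor gene Tnfrsf25 was lower, with 21.7, 11.5, 23.0 and 22.9 CPM in OX40plus and 87.0, 87.3, 92.1 and 78.2 CPM in OX40minus samples (-2.18 ± 0.20 SE, adjusted p = 4.93e-06), as was Tnfrsf26, a further member of the family (4.55 ± 2.57 against 28.7 ± 5.04 CPM, -2.77). Of 9 ligands of the family, 6 were lower and none was called higher (median -0.75). Ltb, which encodes lymphotoxin beta, fell from 1383 ± 50.7 to 733 ± 62.6 CPM (-0.92), and Cd40lg, the ligand of CD40, was at 4.66 ± 2.22 against 30.0 ± 4.76 CPM (-2.85).

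Downstream of these receptors, Traf1 was the only one of 5 TRAF adaptor genes called, and several feedback inhibitors were lower. Among 25 TRAF and NF-kB genes, 11 were lower and 1 higher (median -0.27). Tnfaip3, the gene of the ubiquitin-editing inhibitor A20, was at 662, 893, 757 and 529.8 CPM in OX40plus and 1344, 1731, 1740.1 and 1264 CPM in OX40minus Tregs, without overlap (-1.11 ± 0.15 SE, adjusted p = 7.3e-05). Nfkbiz (-1.16) and Nfkbid (-0.94), nuclear IkB proteins, were lower, and so was Map3k14, the kinase NIK of the alternative NF-kB pathway (12.9 ± 3.78 against 37.2 ± 7.37 CPM, -1.54). The exception was Tnip3, which encodes a partner of A20 (41.9 ± 7.36 against 25.0 ± 2.22 CPM, 0.73), named after its value was seen.

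Among genes of at least 10 CPM whose gates did not overlap, the 12 highest log2 fold changes included metabolic enzymes and secreted or decoy molecules. Acaa1b, a peroxisomal thiolase of fatty acid oxidation (chromosome 9, 119148043 to 119157093), was at 17.5, 18.7, 11.2 and 9.33 CPM in OX40plus and 1.15, 0.961, 1.62 and 1.92 CPM in OX40minus Tregs (3.29 ± 0.36 SE, adjusted p = 1.58e-05). Its near-identical copy Acaa1a makes the split of reads between the pair uncertain. Flvcr2, a transporter of the major facilitator family, was at 13.1, 10.7, 10.5 and 8.90 CPM against 1.597, 0.538, 3.42 and 0.607 CPM (3.16 ± 0.52 SE, adjusted p = 0.000363). Penk, the proenkephalin gene, a source of opioid peptides, was at 267, 203, 231 and 211 CPM against 63.4, 33.0, 35.7 and 29.8 CPM (2.55 ± 0.20 SE, adjusted p = 1.22e-06). For Penk every OX40plus value lay far above the OX40minus ones, of which mouse 1 had the highest.

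Il1r2, the decoy receptor that binds interleukin-1 without signaling, was at 242, 248, 239 and 289 CPM against 56.5, 62.2, 59.5 and 54.0 CPM and had the smallest spread of the 12 (2.13 ± 0.09 SE, adjusted p = 5.99e-08). Spp1, the gene of the secreted phosphoprotein osteopontin (chromosome 5, 104435111 to 104441053), was at 32.2, 29.7, 38.3 and 15.5 CPM against 5.04, 5.84, 5.13 and 10.7 CPM (2.11 ± 0.31 SE, adjusted p = 0.000157). Mouse 4 had both the lowest OX40plus and the highest OX40minus value of Spp1. Shmt1, the cytosolic serine hydroxymethyltransferase that feeds single-carbon units into nucleotide synthesis (chromosome 11, 60788897 to 60811265), was at 112, 106, 121 and 113 CPM against 22.8, 27.1, 31.0 and 30.8 CPM (2.03 ± 0.12 SE, adjusted p = 2.73e-07). Bcat1, the cytosolic aminotransferase of branched-chain amino acids, was at 35.8, 32.05, 44.3 and 33.5 CPM against 8.66, 9.15, 7.77 and 9.39 CPM (2.05 ± 0.17 SE, adjusted p = 2.07e-06). The remaining members of the 12 were the histone gene H2bc11 (2.27), the replication origin gene Orc1 (2.14), Nckap5 (2.10), the solute carrier gene Slc4a11 (1.97) and Ccdc14, a centrosome gene (2.18 ± 0.78 SE, adjusted p = 0.0397). Ccdc14 lost its call without a filter on low values (adjusted p = 0.074), with the first library alone and without any 1 of the 4 OX40plus samples (adjusted p = 0.0514 to 0.0922).

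The 12 lowest log2 fold changes were larger in size. St8sia6, a sialyltransferase that builds chains of sialic acid recognised by inhibitory lectin receptors (chromosome 2, 13651018 to 13794734), was at 1.21, 0.147, 0.26 and 0.944 CPM in OX40plus and 20.3, 18.4, 17.7 and 13.7 CPM in OX40minus Tregs (-5.11 ± 0.56 SE, adjusted p = 1.69e-05). Tcf7, which encodes the resting and memory T cell factor TCF1 (chromosome 11, 52246527 to 52283383), was at 1.56, 3.05, 2.28 and 0.607 CPM against 28.8, 25.2, 39.8 and 28.1 CPM (-4.19 ± 0.41 SE, adjusted p = 7.86e-06). Slc28a2b, a concentrative nucleoside transporter gene, was at 3.13, 0.324, 1.13 and 1.42 CPM against 28.0, 23.1, 33.0 and 35.0 CPM (-4.68 ± 0.51 SE, adjusted p = 1.69e-05). None of these 3 genes exceeded 3.13 CPM in an OX40plus sample, and none was below 13.7 CPM in an OX40minus sample. Slc28a2b has a near copy in Slc28a2, which was also lower (-0.93), and how reads were shared between them is uncertain.

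Evl, an actin regulator of the Ena/VASP family, was at 3.74, 3.14, 5.57 and 4.12 CPM against 39.97, 46.2, 56.4 and 40.6 CPM (-3.49 ± 0.22 SE, adjusted p = 2.94e-07). Prg4, the lubricating proteoglycan gene, was at 2.25, 6.16, 5.34 and 8.82 CPM against 90.6, 84.4, 69.1 and 77.9 CPM (-3.98 ± 0.32 SE, adjusted p = 1.89e-06). Gbp2b, an interferon-induced guanylate-binding protein gene, was at 3.04, 4.88, 4.94 and 2.71 CPM against 95.6, 47.3, 66.4 and 77.0 CPM (-4.20 ± 0.26 SE, adjusted p = 2.94e-07). Nr1d1, which encodes the clock repressor REV-ERB alpha, ranged from 0.0803 to 4.20 CPM in OX40plus and from 14.8 to 20.9 CPM in OX40minus Tregs (-4.21 ± 0.91 SE, adjusted p = 0.00259). Card6, a caspase recruitment domain gene (-3.56), followed. The other 4 were Ccl8, a monocyte-attracting chemokine gene (2.28 ± 2 against 43.6 ± 20.8 CPM, -4.53), the complement genes C1qa (-3.38) and C1qc (-3.94), and Igfbp3, a secreted binding protein of insulin-like growth factors. Igfbp3 rested on few samples: its OX40minus values were 1.81, 1.87, 45.7 and 13.7 CPM, with mouse 3 far above mice 1 and 2, and limma-voom did not call it (adjusted p = 0.101).

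Cell cycle genes were higher throughout the list in OX40plus Tregs. All 26 tested mitosis genes were called higher, with a median log2 fold change of 1.30, and all 26 had gates that did not overlap, beside 38.3% of all tested genes. Their summed level was 5599, 5984, 5471 and 6173 CPM in OX40plus Tregs of mice 1 to 4 and 2569, 3027, 2496 and 2368 CPM in OX40minus Tregs. In every mouse the OX40plus sum was the higher one, with the widest gap in mouse 4. Ccnb1, the cyclin that drives entry into mitosis, was at 283, 355, 341 and 411 CPM against 109.8, 132, 118 and 109.8 CPM (1.55 ± 0.11 SE, adjusted p = 8.37e-07). Top2a, the topoisomerase that untangles chromosomes, was at 582, 589.7, 553 and 553 CPM against 224, 291, 232 and 231 CPM (1.23 ± 0.09 SE, adjusted p = 8.37e-07). Mki67, the proliferation marker Ki-67, was at 306, 307, 286 and 312 CPM against 148, 187, 125 and 130.2 CPM (1.05 ± 0.11 SE, adjusted p = 1.67e-05), and the spindle assembly gene Tpx2 and the cyclin gene Ccna2 differed by 1.34 and 1.43. No mitosis gene lost its call under any of the 18 alternative settings, including a fit with the mouse as a block.

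Promoters of late cell cycle genes often hold the cell cycle homology region, read here as TTTGAA on either strand of the 250 bases before and 50 bases after the start. Of the mitosis genes, 23 of 26 had a RefSeq promoter in build GRCm38.p6, and 18 of 23 (78.3%) of these held the motif, against 1267 of 8500 (14.9%) of the promoters of all tested genes. The stretches below come from the 3 called mitosis genes with the smallest adjusted p that had the motif before their start. They are printed 5′ to 3′ on the strand of the gene, with the motif in capitals. Top2a lies at chr11:99024190-99024252, minus strand, Ube2c, which encodes the ubiquitin-conjugating enzyme of the anaphase-promoting complex (1.55), at chr2:164769860-164769928, plus strand, and Cdk1, the mitotic kinase (1.45), at chr10:69352913-69352967, minus strand.
Top2a: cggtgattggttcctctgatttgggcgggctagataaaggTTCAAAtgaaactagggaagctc
Ube2c: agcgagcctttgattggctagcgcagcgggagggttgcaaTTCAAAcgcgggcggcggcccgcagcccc
Cdk1: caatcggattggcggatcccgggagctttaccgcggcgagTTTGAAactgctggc
In Top2a and Ube2c the motif stands on the opposite strand, as TTCAAA. A match describes the letters only and shows no binding.

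DNA replication genes followed the same direction. Of 28 tested, 27 were higher (median 1.18) and none was lower. Summed, they were at 5899, 6663, 6441 and 6076 CPM in OX40plus and 2952, 3333, 2978 and 2883 CPM in OX40minus Tregs. Mcm5 and Mcm6 encode subunits of the replicative helicase. Mcm5 was at 501, 608, 571 and 548 CPM against 231, 266, 249 and 210.1 CPM (1.22 ± 0.09 SE, adjusted p = 9.79e-07), and Mcm6 at 858, 829, 877 and 823 CPM against 414, 488, 420.1 and 416 CPM (0.97 ± 0.07 SE, adjusted p = 1.13e-06). Rrm1 (1.11) and Rrm2 (1.02), the ribonucleotide reductase subunits that supply deoxynucleotides, were higher without overlap. Orc1, the largest subunit of the origin recognition complex, was at 30.6, 44.0, 41.6 and 33.5 CPM against 5.73, 10.1, 10.5 and 8.08 CPM (2.14 ± 0.22 SE, adjusted p = 1.03e-05). The gene not called was Cdt1, which loads the helicase in G1 (74.2 ± 16.8 against 65.5 ± 1.91 CPM, 0.15 ± 0.15 SE, adjusted p = 0.432).

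E2F sites, read as TTTCCCGC or TTTGGCGC on either strand, stood in 9 of 23 (39.1%) replication promoters with a RefSeq entry, against 291 of 8500 (3.42%) of all tested genes. The 3 called members with the smallest adjusted p and a site before their start were Mcm5 (chr8:75109320-75109407, plus strand), Mcm6 (chr1:128359706-128359792, minus strand) and Cdc6, a loader of the helicase (1.38; chr11:98907973-98908060, plus strand). Capitals mark the site.
Mcm5: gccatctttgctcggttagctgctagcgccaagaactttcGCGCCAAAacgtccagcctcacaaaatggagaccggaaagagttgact
Mcm6: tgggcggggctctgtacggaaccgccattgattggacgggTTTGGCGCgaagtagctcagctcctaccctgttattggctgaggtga
Cdc6: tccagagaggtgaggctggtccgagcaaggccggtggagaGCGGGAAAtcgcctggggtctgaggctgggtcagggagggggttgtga
In Mcm5 and Cdc6 the site is on the opposite strand.

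Genes of the G1 phase had calls in both directions. Of 20 tested, 11 were higher and 4 lower (median 0.38). Their lower share was near the 19.4% of all tested genes, and their higher share was above the 20.4%. The kinases Cdk4 (293 ± 30.4 against 185 ± 7.71 CPM, 0.66) and Cdk6 (0.63) and the inhibitor gene Cdkn2c (0.75) were higher. The D cyclin gene Ccnd3 was lower, with 355, 334, 358 and 337 CPM against 483, 448, 498 and 495 CPM (-0.48 ± 0.07 SE, adjusted p = 0.000139). Replication-dependent histone genes were higher in 12 of 15 cases with a median of 1.62. H2bc11 was at 39.1, 35.2, 47.4 and 47.6 CPM against 7.66, 11.95, 8.25 and 7.45 CPM (2.27 ± 0.19 SE, adjusted p = 2.62e-06), and H1f5, a linker histone gene, at 30.4 ± 10.8 against 8.93 ± 0.964 CPM (1.71). Histone genes have near-identical copies, so the share of reads given to each is uncertain.

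**Figure D3:**
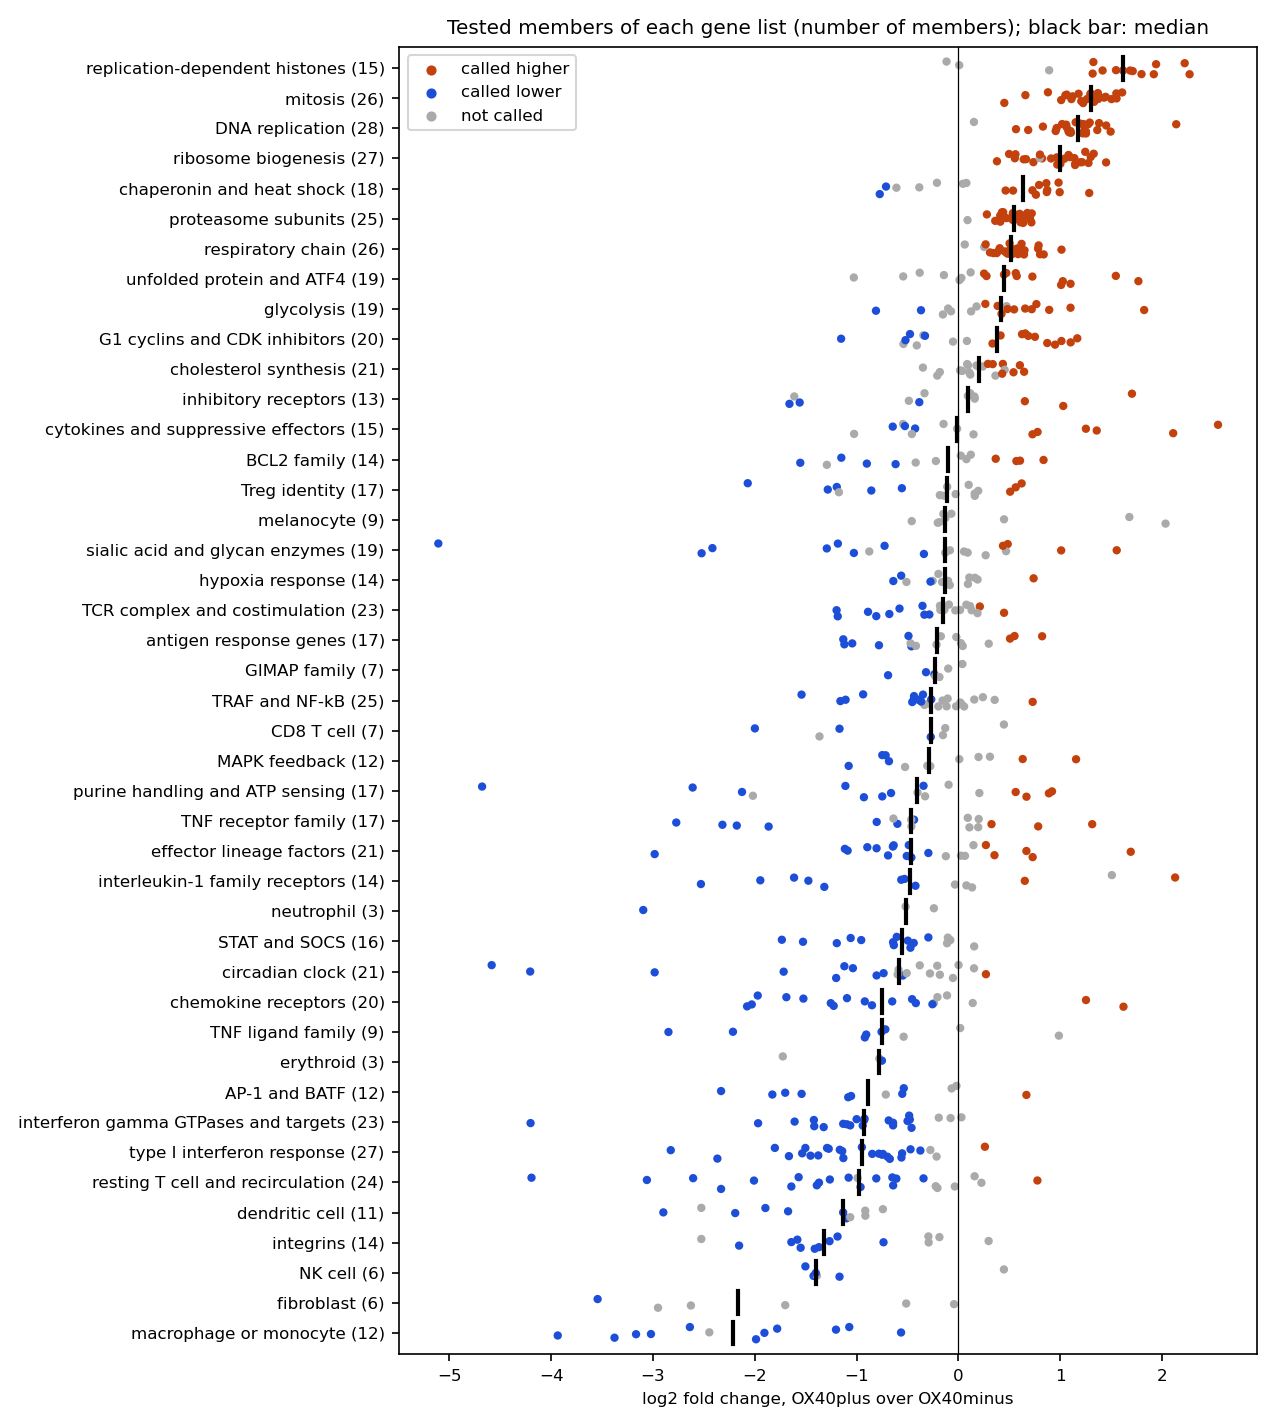
Each point is a tested member of a gene list placed by its log2 fold change, OX40plus over OX40minus, with called members in orange (higher) or blue (lower), the rest in grey and the list's median as a black bar. Lists with at least 3 tested members are shown, from replication-dependent histones (median 1.62) at the top to macrophage or monocyte markers (median -2.22) at the bottom.

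Genes that build and fold proteins were higher in OX40plus Tregs. Of 27 ribosome biogenesis genes 26 were higher and none was lower (median 1.00), and their summed level was 3446, 3568, 4056 and 3869 CPM against 1833, 2022, 2018 and 1851 CPM. Myc, a transcription factor known to drive them, was at 212, 207, 247 and 169.9 CPM against 123, 112, 110.2 and 124 CPM (0.82 ± 0.11 SE, adjusted p = 7.15e-05). Nop56, a core protein of the small nucleolar RNA particles that modify ribosomal RNA, was at 274, 296, 309 and 349.6 CPM against 137, 144, 143 and 132 CPM (1.14 ± 0.09 SE, adjusted p = 1.3e-06), and the nucleolin gene Ncl was higher by 0.97. Of 18 chaperonin and heat shock genes 11 were higher (median 0.63), such as Tcp1 and Cct5, subunits of the chaperonin that folds actin and tubulin (0.98 and 0.87), and Hsp90ab1 (0.73). The 2 lower members were the stress-induced pair Hspa1a (85.4 ± 26.6 against 142 ± 31.5 CPM) and Hspa1b (127 ± 38.2 against 204 ± 51.6 CPM), named after their values were seen, and as near-identical copies they cannot be read apart.

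Proteasome subunit genes were higher in 24 of 25 cases with a median of 0.55. Psmd1, a subunit of the regulatory particle, was at 263, 301, 311 and 316 CPM against 166, 193, 181 and 182 CPM (0.72 ± 0.08 SE, adjusted p = 2.88e-05). Of 19 genes of the unfolded protein and ATF4 responses, 12 were higher and none was lower (median 0.45). The highest were enzymes of amino acid synthesis. Asns, asparagine synthetase, was at 49.4, 49.0, 58.3 and 64.1 CPM against 12.8, 14.7, 19.8 and 17.9 CPM (1.77 ± 0.17 SE, adjusted p = 5.83e-06). Psat1 and Phgdh, which make serine, were at 199, 233, 217 and 257 CPM against 69.9, 73.7, 87.1 and 78.9 CPM (1.55 ± 0.10 SE, adjusted p = 4.89e-07) and at 531 ± 46.6 against 247 ± 17.3 CPM (1.102). Shmt2, the mitochondrial partner of Shmt1, was higher by 1.03.

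Energy metabolism was higher by smaller amounts. Of 26 nuclear genes of the respiratory chain 24 were higher and none was lower (median 0.52), with summed levels of 8124, 8416, 9079 and 10096 CPM against 6232, 6492, 6504 and 6066 CPM. Mouse 4, whose OX40plus sample also had the highest mitochondrial and ribosomal protein shares, had the widest gap, and without that sample the median was 0.44 with 24 genes higher. What the library's composition contributes was not tested. Atp5b, the catalytic subunit of ATP synthase, was at 1648, 1819, 1910.3 and 1861 CPM against 1212, 1298, 1311 and 1207 CPM (0.52 ± 0.07 SE, adjusted p = 5.32e-05). Of 19 glycolysis genes 11 were higher and 2 lower (median 0.42). Ldha, lactate dehydrogenase, was at 5621, 6025, 5874 and 6346 CPM against 3297, 3357, 3234 and 2968 CPM (0.89 ± 0.06 SE, adjusted p = 8.4e-07), Tpi1, triosephosphate isomerase, at 1456 ± 64.3 against 884 ± 53.2 CPM (0.72), and the enolase gene Eno3 at 41.5 ± 4.91 against 11.7 ± 1.23 CPM (1.83). The 2 lower genes, named after their values were seen, were the glucose transporter gene Slc2a3 (-0.81) and the aldolase gene Aldoc (-0.37).

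Hypoxia genes did not share a direction, with 1 higher, 3 lower and 10 of 14 not called (median -0.13). The lower share was near the 19.4% of all tested genes, and the higher share was under their 20.4%. Bnip3, a mitophagy receptor gene, was at 258, 253, 222 and 280.1 CPM against 143, 165, 153 and 144 CPM (0.74 ± 0.09 SE, adjusted p = 3.91e-05), whereas P4ha1, a collagen prolyl hydroxylase gene, was lower (125 ± 13.4 against 195 ± 14.5 CPM, -0.64). Cholesterol synthesis genes were higher in 7 of 21 cases (median 0.20), beside 20.4% of all genes, and 18 had a log2 fold change above 0. Idi1, isopentenyl diphosphate isomerase, was at 165, 186, 195 and 248 CPM against 128, 119, 148 and 123 CPM (0.60 ± 0.12 SE, adjusted p = 0.00159).

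Genes of resting, recirculating T cells were lower in OX40plus Tregs. Of 24 tested, 17 were lower and 1 higher (median -0.98). Klf2, the factor that keeps lymphocytes in circulation (chromosome 8, 72319062 to 72321654), was at 54.2, 35.2, 56.8 and 43.7 CPM in OX40plus and 242, 282, 315 and 304 CPM in OX40minus Tregs (-2.61 ± 0.15 SE, adjusted p = 1.65e-07). Its relative Klf3 was at 20.4, 14.5, 13.1 and 12.7 CPM against 106, 124, 130.2 and 138 CPM (-3.06 ± 0.16 SE, adjusted p = 1.15e-07). S1pr1, the sphingosine phosphate receptor that T cells need to leave lymphoid tissue, was at 112, 127, 133 and 133 CPM against 366, 389, 430.0 and 389 CPM (-1.64 ± 0.09 SE, adjusted p = 1.15e-07). None of these 3 genes had overlapping gates. Ccr7, the receptor for lymph node entry, was not called, with 107, 164, 167 and 147 CPM against 155, 184, 170.4 and 156 CPM (-0.21 ± 0.13 SE, adjusted p = 0.234). The called higher member was Satb1, a chromatin organizer gene (299.8 ± 32.05 against 175 ± 13.6 CPM, 0.78), named after its value was seen.

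Homing and adhesion receptors were lower in part. Of 20 chemokine and related receptors, 14 were lower and 2 higher (median -0.75). Ccr8, a receptor used to mark tumor Tregs (chromosome 9, 120092133 to 120094906), was at 1089.7, 1195, 1055 and 930.5 CPM against 371, 397, 298 and 323 CPM (1.62 ± 0.10 SE, adjusted p = 2.94e-07), and Cx3cr1, the fractalkine receptor gene named after its value was seen, at 49.0 ± 9.06 against 21.0 ± 6.31 CPM (1.25). Ccr4, a receptor for skin chemokines, was at 40.4, 36.6, 49.0 and 43.6 CPM against 159.8, 162, 176 and 164 CPM (-1.97 ± 0.11 SE, adjusted p = 1.26e-07). Ccr3, an eotaxin receptor gene, was at 41.8, 40.8, 36.3 and 47.4 CPM against 184, 157, 174 and 185 CPM (-2.08 ± 0.11 SE, adjusted p = 1.15e-07), and Ccr2, the receptor for monocyte chemoattractants, at 879 ± 80.8 against 1658 ± 82.6 CPM (-0.92). Of 14 integrin genes 9 were lower, with no higher call (median -1.32). Itgb1, the beta chain shared by many integrins, was at 225, 218, 244 and 209 CPM against 453, 529, 619 and 564 CPM (-1.27 ± 0.10 SE, adjusted p = 1.16e-06), and its partners Itga4 (-1.64) and Itga6 (-1.37) were lower too.

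Most AP-1 genes were lower in OX40plus Tregs, while genes of the T cell receptor complex were lower in part and the CD3 chain genes (Cd3d, Cd3e, Cd3g and Cd247) were not called. Cd3e had gates that did not overlap (-0.18, adjusted p = 0.0613) and was called lower with library size alone (adjusted p = 0.0327). Cd3g was called lower without OX40plus mouse 4 (adjusted p = 0.0105). Of 23 genes of the receptor complex and costimulation, 9 were lower and 2 higher (median -0.15). Prkcq, protein kinase C theta, was at 93.5, 101, 87.0 and 88.4 CPM against 222, 191, 215 and 221 CPM (-1.20 ± 0.09 SE, adjusted p = 1.13e-06). The co-receptor gene Cd4 was at 511, 515, 448 and 340.1 CPM against 712, 728, 722 and 703 CPM (-0.68 ± 0.11 SE, adjusted p = 0.000404), with the lowest value in OX40plus mouse 4. Of 12 AP-1 genes 8 were lower and 1 higher (median -0.88). Fos was at 459, 382, 474 and 436 CPM against 1128, 1207, 1382 and 1378 CPM (-1.54 ± 0.09 SE, adjusted p = 2.06e-07), and Junb at 1667, 1588, 1570.0 and 1329 CPM against 3007, 3393, 3319.9 and 3030.3 CPM (-1.05 ± 0.08 SE, adjusted p = 1.13e-06). Batf, the AP-1 factor of effector Tregs, was the higher one, with 377, 369, 396 and 478 CPM against 271, 264, 247 and 233 CPM (0.67 ± 0.09 SE, adjusted p = 0.000101). Jun differed by -1.08.

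Antigen response genes were mixed: 3 of 17 were higher and 6 lower (median -0.21). Irf8 was higher (487 ± 53.2 against 331 ± 10.8 CPM, 0.55), and Bhlhe40 (199.6, 214, 217 and 192 CPM against 380.2, 479, 564 and 386 CPM, -1.12) and the early activation antigen gene Cd69 (259 ± 37.0 against 531 ± 60.0 CPM, -1.04) were lower. MAPK feedback genes were higher in 2 and lower in 4 of 12 cases (median -0.29), with the phosphatase gene Dusp1 at 1065 ± 79.0 against 1789 ± 146 CPM (-0.75) and Dusp16 at 16.7 ± 3.60 against 7.47 ± 1.46 CPM (1.16). In the antigen response and MAPK lists the higher share was under the 20.4% of all tested genes. Their lower share was above the 19.4% of all tested genes. Among 21 factors of effector lineages, 5 were higher and 12 lower (median -0.46), with a higher share near the 20.4% of all tested genes. Pparg, the nuclear receptor of fat tissue Tregs (chromosome 6, 115360879 to 115490404), was at 50.6, 61.0, 57.2 and 54.5 CPM against 20.5, 15.5, 16.3 and 16.8 CPM (1.69 ± 0.14 SE, adjusted p = 2.02e-06). Ahr, the aryl hydrocarbon receptor gene, was at 43.1, 36.2, 31.1 and 40.4 CPM against 66.5, 67.1, 93.4 and 104 CPM (-1.12 ± 0.16 SE, adjusted p = 0.000163), and Rora, a nuclear receptor of tissue lymphocytes, at 155 ± 13.2 against 269.7 ± 6.93 CPM (-0.80).

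Cytokine signaling genes were lower. None of 16 STAT, JAK and SOCS genes was called higher and 12 were lower (median -0.55). Stat4, the factor that transmits interleukin-12 signals, was at 57.6, 47.1, 50.6 and 62.6 CPM against 191, 166, 181 and 183 CPM (-1.73 ± 0.11 SE, adjusted p = 2.94e-07). Stat5b, which transmits interleukin-2 signals, was at 214, 169, 171 and 157 CPM against 378, 354, 349.7 and 391 CPM (-1.06 ± 0.10 SE, adjusted p = 4.74e-06), and the feedback inhibitor gene Socs3 at 168 ± 38.1 against 480.3 ± 84.8 CPM (-1.53). Of 14 genes of the interleukin-1 receptor family 8 were lower and 2 higher (median -0.48). Il1rl1, the interleukin-33 receptor of tissue Tregs, was at 39.8, 21.0, 33.5 and 31.5 CPM against 74.4, 56.9, 80.9 and 99.6 CPM (-1.32 ± 0.20 SE, adjusted p = 0.000226), and the interleukin-18 receptor genes Il18r1 (-1.47) and Il18rap (-1.61) were lower too. Besides the decoy Il1r2, the receptor antagonist gene Il1rn was higher (34.1 ± 6.13 against 21.9 ± 4.96 CPM, 0.65), named after its value was seen.

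Il10, the suppressive cytokine gene (chromosome 1, 131019845 to 131024970), was at 473, 466, 418 and 526 CPM against 301, 318, 275 and 245 CPM (0.73 ± 0.10 SE, adjusted p = 7.11e-05). Nkg7, a granule membrane protein gene, was at 1031, 949, 914 and 929.7 CPM against 433, 409.7, 321 and 337 CPM (1.36 ± 0.10 SE, adjusted p = 7.82e-07), and Prf1, the gene of the pore protein perforin, at 163, 233, 171 and 139.7 CPM against 71.9, 85.7, 73.2 and 61.9 CPM (1.25 ± 0.15 SE, adjusted p = 2.84e-05). Counting Penk and Spp1, 6 of 15 genes of this list were higher and 3 lower (median -0.01). Their lower share was near the 19.4% of all tested genes. The lower ones, named after their values were seen, were Gzmc (-0.64), Furin (-0.53) and Areg (-0.42). Each of these 3 lost its call without OX40minus mouse 3, and each also lost it in other settings. Among these were the fit with the mouse as a block for Gzmc (adjusted p = 0.0727) and no filter for Furin (adjusted p = 0.0774). For Areg it was the fit of all 14 samples (adjusted p = 0.218). Among 13 inhibitory receptors, 3 were higher and 3 lower (median 0.09), shares near the 20.4% and 19.4% of all tested genes. Lag3, which binds MHC class II (chromosome 6, 124904359 to 124912434), was at 90.2, 101, 68.5 and 60.3 CPM against 27.2, 31.3, 16.7 and 23.5 CPM (1.71 ± 0.21 SE, adjusted p = 3.54e-05), Havcr2, the TIM-3 gene, at 163 ± 5.89 against 80.2 ± 10.2 CPM (1.03), and Pdcd1, the PD-1 gene, at 296, 284, 249 and 260.0 CPM against 176, 186, 159.7 and 170.3 CPM (0.65 ± 0.09 SE, adjusted p = 6.21e-05). Cd96, a receptor for nectin ligands, was lower, with 10.1, 17.3, 17.4 and 18.7 CPM against 44.5, 41.2, 47.7 and 64.5 CPM (-1.66 ± 0.21 SE, adjusted p = 5.13e-05).

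Interferon-induced genes were lower in OX40plus Tregs. Of 27 type I interferon genes 24 were lower and 1 higher (median -0.95), with summed levels of 3460.0, 3306, 3197 and 3747 CPM in OX40plus and 5508, 5067, 5818 and 5386 CPM in OX40minus samples. Irf7, the factor that amplifies the response (chromosome 7, 141263183 to 141266499), was at 130.1, 145, 134 and 139 CPM against 342, 293, 358 and 350.1 CPM (-1.29 ± 0.09 SE, adjusted p = 4.21e-07). Ifit3, an RNA-response protein gene, was at 51.6, 29.9, 36.6 and 41.8 CPM against 187, 167, 249.6 and 215 CPM (-2.37 ± 0.16 SE, adjusted p = 6.75e-07), with a near-identical neighbour, Ifit3b, that makes its count uncertain. Oas1a, which makes the activator of RNase L, was at 63.9, 68.5, 62.8 and 59.7 CPM against 128, 108, 136 and 120.2 CPM (-0.95 ± 0.10 SE, adjusted p = 1.42e-05), and the nucleic acid sensor gene Zbp1 at 345 ± 32.4 against 592 ± 27.8 CPM (-0.78). The higher gene was Isg20, a nuclease gene (319 ± 11.6 against 267 ± 22.3 CPM, 0.26), named after its value was seen. Of 23 genes of the interferon gamma response 20 were lower, with no higher call (median -0.93). Cd274, which encodes PD-L1, was at 124, 115, 91.9 and 99.9 CPM against 260.1, 284, 264 and 261 CPM (-1.32 ± 0.10 SE, adjusted p = 1.14e-06), and the guanylate-binding protein genes Gbp8 and Gbp9 differed by -1.61 and -1.42.

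The core of the interferon-stimulated response element, read as GAAANNGAA on either strand, stood in 10 of 19 (52.6%) type I interferon promoters with a RefSeq entry (of 27 genes), against 763 of 8500 (8.98%) of all tested genes. Stretches of the 3 called members with the smallest adjusted p and a match before the start are printed, with matches in capitals: Ifit3 (chr19:34583387-34583475, plus strand), Oas1a (chr5:120907526-120907579, minus strand) and Rsad2, the antiviral viperin gene (-1.80; chr12:26456523-26456611, minus strand).
Ifit3: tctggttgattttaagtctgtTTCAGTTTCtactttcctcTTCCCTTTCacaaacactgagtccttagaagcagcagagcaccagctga
Oas1a: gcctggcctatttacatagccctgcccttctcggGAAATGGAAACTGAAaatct
Rsad2: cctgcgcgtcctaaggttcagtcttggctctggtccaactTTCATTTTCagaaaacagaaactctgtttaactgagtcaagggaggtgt
Ifit3 shows 2 matches on the opposite strand, Oas1a shows 2 that overlap, and Rsad2 shows 1 on the opposite strand.

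Markers of other cell types moved with these lists. Of 12 tested macrophage or monocyte markers 11 were lower and none was higher (median -2.22), and the 14 markers in the table summed to 339 to 415 CPM in OX40plus and 679 to 805 CPM in OX40minus samples. Most of each sum was the cathepsin gene Ctss, with 273 to 345 CPM in OX40plus and 427 to 515 CPM in OX40minus samples. Its log2 fold change (-0.56) was the smallest in size of the list. Apoe, a lipid carrier of macrophages, was at 6.37, 13.1, 12.1 and 18.4 CPM against 62.0, 129.7, 84.7 and 119 CPM (-3.02 ± 0.30 SE, adjusted p = 7.84e-06), the complement gene C1qb at 6.15 ± 2.31 against 37.2 ± 10.9 CPM (-2.64) and the lysosomal gene Cd68 at 22.4 ± 3.76 against 46.6 ± 3.49 CPM (-1.07). Adgre1, which encodes a surface antigen of mature macrophages, did not pass the filter and had at most 3.57 CPM in any sample. Dendritic cell markers were lower in 6 of 11 cases and summed to 168 to 268 CPM in OX40plus and 452 to 606 CPM in OX40minus samples. Most of each dendritic cell sum was Cd74, the MHC class II chaperone. It was at 157, 145, 178 and 118 CPM against 313, 308, 385 and 296 CPM (-1.13 ± 0.12 SE, adjusted p = 1.7e-05). Cd209a gave 24.9 to 43.1 and 75.6 to 126 CPM. Clec9a, H2-Ab1, H2-Aa and Siglech had at most 2.24, 3.17, 5.76 and 6.18 CPM in any sample. NK cell markers were lower in 4 of 6 cases and summed to 58.6 to 85.4 CPM in OX40plus and 143 to 215 CPM in OX40minus samples, and Ncr1 and Eomes, which define that lineage, had at most 1.03 and 1.404 CPM. Much of the sum was Tyrobp (16.8 to 22.2 against 41.5 to 62.6 CPM) and Fcer1g (14.35 to 23.1 against 41.1 to 65.7 CPM). Myeloid cells also carry these 2 genes. Klrc1 went the other way without a call (0.45). Of the neutrophil markers Mmp9, a matrix protease gene, was lower (42.1, 18.1, 29.9 and 16.2 CPM against 202, 185, 259 and 205 CPM, -3.10 ± 0.25 SE, adjusted p = 1.67e-06), while S100a8 and S100a9 had at most 1.07 and 1.06 CPM. The part of these cell types in the interferon, chemokine receptor and integrin differences was not tested.

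Fewer genes were called among markers of tumor cells and stroma. None of 9 tested melanocyte genes was called, and the 10 in the table summed to 109.6 to 246 CPM in OX40plus and 140.3 to 191 CPM in OX40minus samples, the highest in OX40plus mouse 4. CD8 T cell markers were lower in 3 of 7 cases and summed to 188 to 216 CPM in OX40plus and 226 to 267 CPM in OX40minus samples. Most of the CD8 sum was Ccl5, at 139 to 146 CPM in OX40plus and 153 to 199 CPM in OX40minus samples. Cd8a was at 2.88 ± 0.507 against 12.5 ± 6.57 CPM (-1.999). Its partner chain gene Cd8b1 overlapped between the gates (27.4 to 42.9 against 30.5 to 46.4 CPM). Klrc1, which is also among these markers, went the other way without a call (0.45, adjusted p = 0.22). B cell markers in the table summed to 1.64 to 4.31 CPM in OX40plus and 1.15 to 6.16 CPM in OX40minus samples, and Pax5, which defines that lineage, stayed under the limit that 3 counts allow in all 8 samples. Fibroblast markers summed to 55.5 to 110.1 CPM in OX40plus and 79.7 to 96.2 CPM in OX40minus samples. Thy1, which T cells also carry, gave 45.5 to 66.5 and 54.4 to 60.7 CPM of these sums. Of 6 fibroblast markers tested, 1 was lower (Col1a2, 1.83 ± 2.48 against 7.36 ± 1.43 CPM). Endothelial markers summed to 63.9 to 96.9 CPM in OX40plus and 125 to 193 CPM in OX40minus samples. There 1 of 2 was lower (Pecam1, which T cells also carry, -0.96), and Pecam1 alone gave 62.8 to 82.6 and 121.5 to 151.6 CPM. Keratinocyte markers summed to 38.4 to 41.7 CPM in OX40plus and 48.6 to 76.2 CPM in OX40minus samples with 1 of 2 lower (Epcam, -0.65). Red cell genes summed to 34.9 to 101 CPM in OX40plus and 87.2 to 166 CPM in OX40minus samples with 1 of 3 lower (Hba-a2, -0.75 ± 0.27 SE, adjusted p = 0.039), a call lost in the paired fit with a mouse block (adjusted p = 0.0543).

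**Figure D4:**
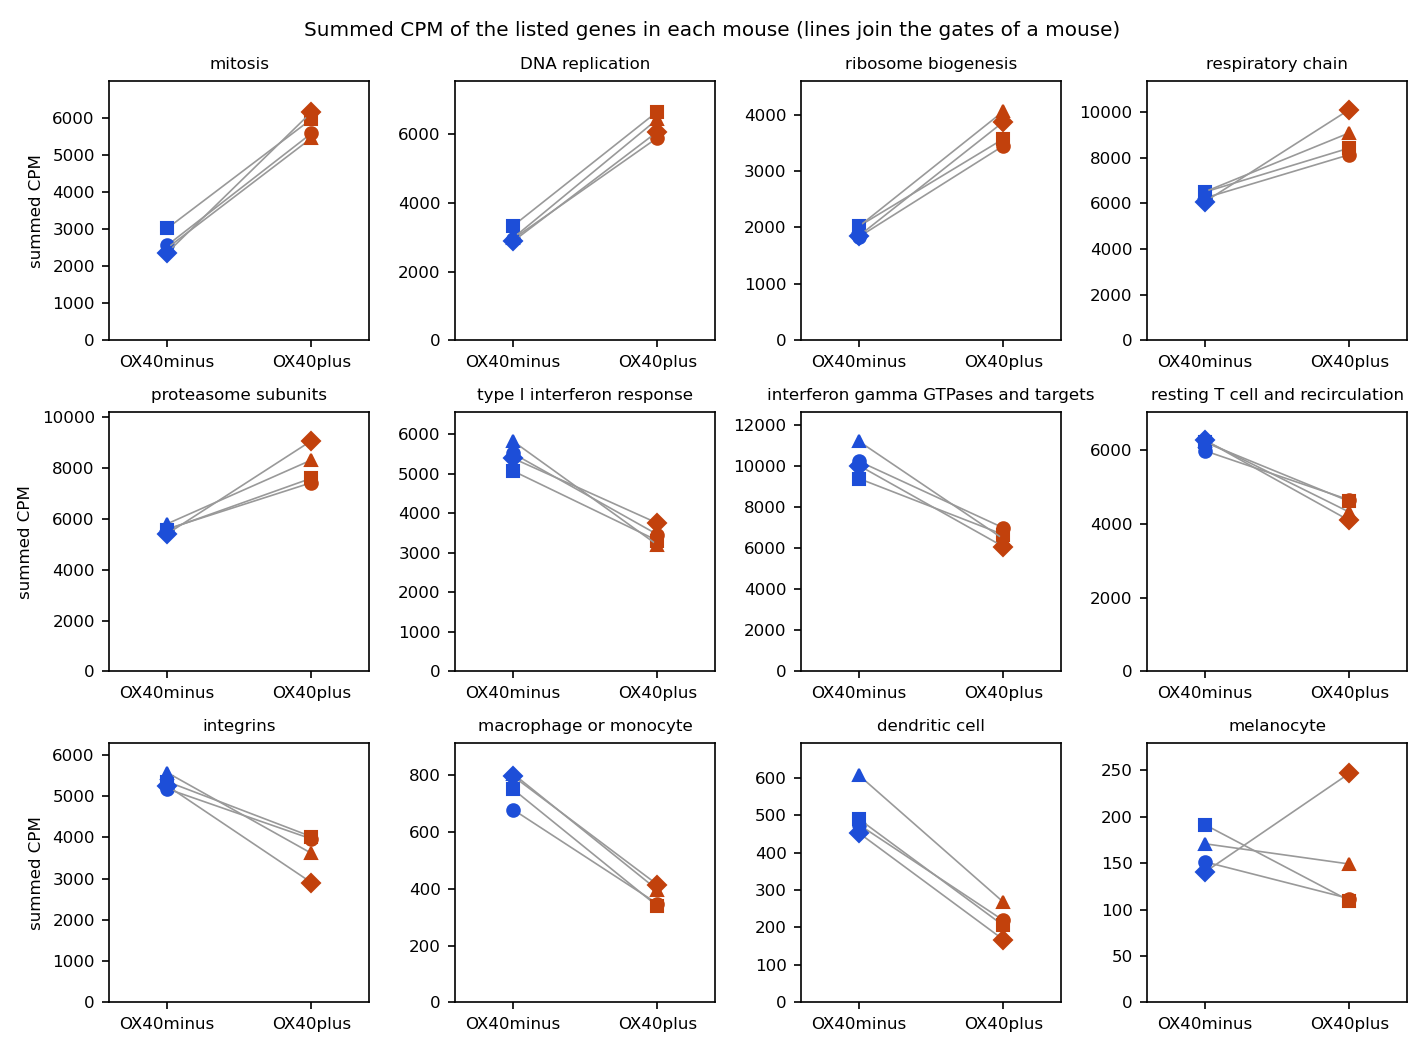
Summed CPM of the listed genes in each tumor sample for 12 lists, OX40minus in blue on the left of each panel and OX40plus in orange on the right, with 1 marker shape per mouse and a grey line joining the gates of that mouse. All 4 lines rise for the first 5 lists and fall for the next 6, while the melanocyte sum fell in 3 mice and rose in mouse 4.

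Smaller families held single genes with wide differences. Of 21 clock genes 10 were lower and 1 higher (median -0.59), among them Nr1d2, a relative of Nr1d1 (28.8, 22.1, 25.9 and 30.9 CPM against 68.6, 58.2, 59.9 and 59.7 CPM, -1.20 ± 0.13 SE, adjusted p = 1.98e-05), and Per1 (20.4 ± 2.67 against 41.6 ± 2.27 CPM, -1.04). In the BCL2 family 4 of 14 genes were higher and 4 lower, beside 20.4% and 19.4% of all tested genes. The survival gene Bcl2 was at 12.5, 11.5, 14.5 and 10.6 CPM against 46.3, 39.7, 30.4 and 29.3 CPM (-1.55 ± 0.19 SE, adjusted p = 3.43e-05) and Mcl1 at 474 ± 31.9 against 726 ± 34.6 CPM (-0.62), while Bcl2l1, which encodes BCL-XL, was at 328, 282, 309.7 and 250.1 CPM against 203, 199, 191 and 191 CPM (0.57 ± 0.09 SE, adjusted p = 0.000281). The death gene Bcl2l11, which encodes BIM, was lower (24.8 ± 7.33 against 53.2 ± 2.87 CPM, -1.15).

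Of 17 genes of purine handling 4 were higher and 8 lower (median -0.40). P2rx7, the ATP-gated channel that kills T cells exposed to extracellular nucleotides, was at 21.3, 8.82, 10.4 and 4.93 CPM against 56.4, 62.1, 67.8 and 56.9 CPM (-2.61 ± 0.33 SE, adjusted p = 4.35e-05), and Art2b, the ectoenzyme that sensitises that channel, at 11.9, 9.57, 6.06 and 10.2 CPM against 35.7, 39.6, 47.5 and 38.1 CPM (-2.13 ± 0.21 SE, adjusted p = 8.32e-06). Among 19 sialic acid and glycan enzymes 4 were higher and 8 lower. In this list and that of purine handling the higher share was near the 20.4% of all tested genes. Beside St8sia6, the sialyltransferase gene St6gal1 was lower (75.9, 29.9, 37.3 and 42.5 CPM against 118, 99.0, 105 and 106 CPM, -1.29 ± 0.22 SE, adjusted p = 0.000457), while the ganglioside synthase gene St3gal5 was higher (65.2, 70.4, 75.5 and 62.8 CPM against 26.3, 18.5, 28.3 and 21.2 CPM, 1.56 ± 0.15 SE, adjusted p = 6.65e-06). The GTPase genes of the GIMAP family, which support lymphocyte survival, were lower in 3 of 7 cases, with Gimap3 at 1113 ± 118 against 1789.6 ± 79.7 CPM (-0.69).

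The 10 called genes with the highest mean level included 4 glycolysis enzymes and a pair of actin regulators. Pkm, pyruvate kinase, was at 6054, 6167, 5601 and 5027 CPM against 3686, 3744, 3704 and 3332 CPM (0.66 ± 0.07 SE, adjusted p = 2.32e-05), and Gapdh (0.55) and Eno1 (0.42) were higher beside Ldha and Tnfrsf9. Pfn1, which encodes the actin-binding protein profilin, was at 4628 ± 327 against 3592 ± 149 CPM (0.36). Tmsb4x, thymosin beta, was lower, but OX40plus mouse 4 (5211 CPM) overlapped the OX40minus samples (5032, 5388, 5699 and 5138 CPM; -0.44 ± 0.12 SE, adjusted p = 0.0102). Shisa5 (-0.70) and Ly6e, an interferon-induced surface protein gene (-0.32), were lower.

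Whether these differences were the same in spleens was asked with the interaction of gate and tissue over all 14 samples, which share no library between tissues. It was called for 1415 of 11378 genes (12.4%), and that count ranged from 831 to 1683 when single samples were left out, with 831 without spleen OX40plus mouse 1 and 877 without spleen OX40minus mouse 2. The spleen samples also had higher shares of mitochondrial (1.13% to 1.52%) and ribosomal protein transcripts (at least 5.82%) than the tumor samples, and their part in the interaction was not tested. Spp1 had the widest gap among the 189 named genes. Its log2 fold change was 2.11 in tumors and -2.56 in spleens (difference 4.67, adjusted p = 0.000167). The spleen value rests on low levels, 0.201 ± 0.141 CPM in OX40plus and 1.22 ± 0.295 CPM in OX40minus samples (SD, n = 3), where 3 counts are at most 0.126 CPM. The macrophage gene C1qc was also lower in spleen OX40plus samples (8.56 ± 3.56 against 98.7 ± 17.5 CPM), and its part in the Spp1 difference was not tested. Evl (-3.49 against -0.77, adjusted p = 5.53e-06), Nrp1 (-2.07 against -0.18, adjusted p = 1.57e-05) and Tcf7 (-4.19 against -0.78, adjusted p = 0.000604) were lower by more in tumors. Shmt1 was higher by more in tumors (2.03 against 0.74, adjusted p = 0.000206). Other genes were higher by less in tumors, such as Ccr8 (1.62 against 3.11, adjusted p = 5.5e-05), Il10 (0.73 against 2.41, adjusted p = 0.000106) and Tnfrsf4 (0.78 against 1.48, adjusted p = 0.0146). Signs were opposite for Bhlhe40 (-1.12 against 1.16, adjusted p = 5.53e-06), Prf1 (1.25 against -0.85, adjusted p = 5.84e-05) and Dusp1 (-0.75 against 0.74, adjusted p = 0.000106). For Penk (2.55 against 3.17, adjusted p = 0.189), Mki67 (1.05 against 0.78, adjusted p = 0.619) and Lag3 (1.71 against 1.51, adjusted p = 0.729) the interaction was not called, which does not show that the differences were equal.

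**Figure D5:**
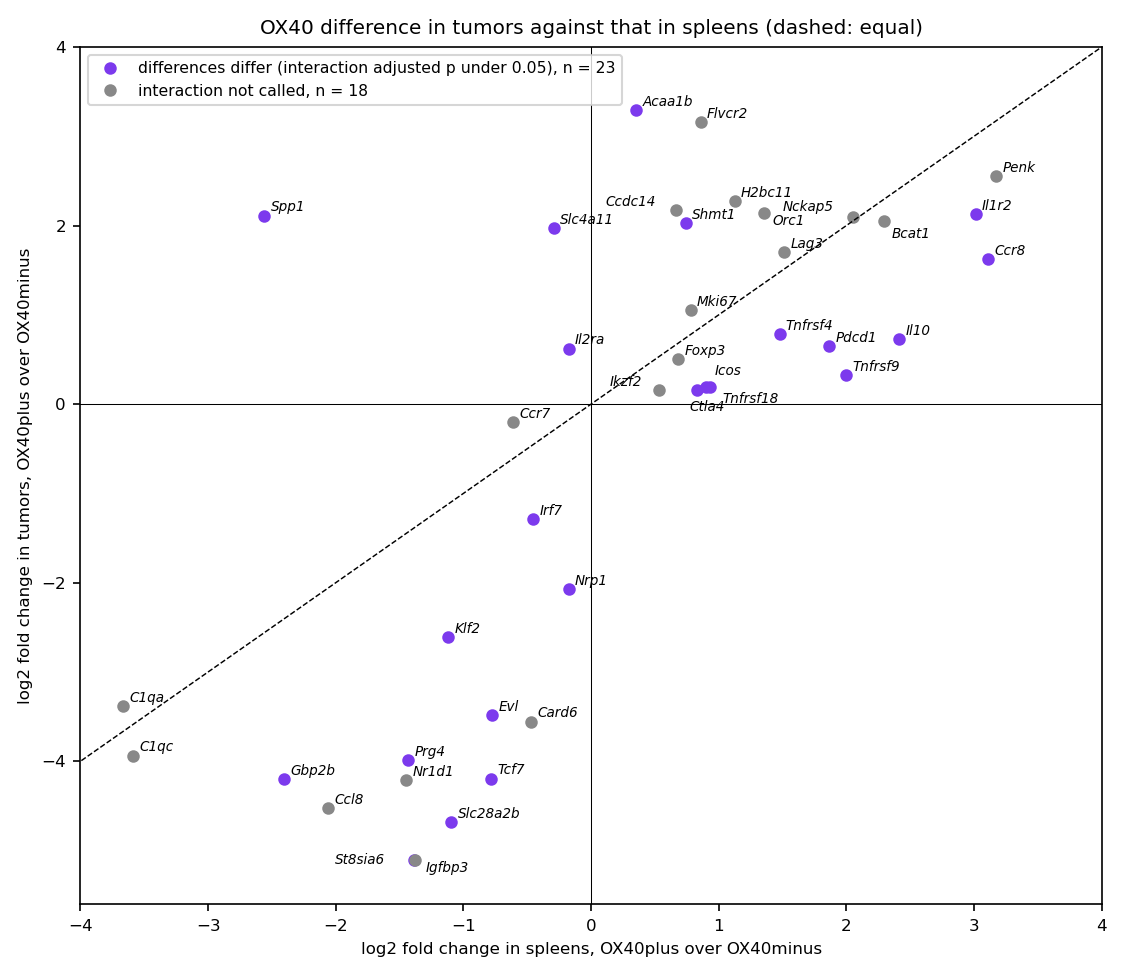
Log2 fold change of OX40plus over OX40minus in tumors (y axis) against that in spleens (x axis) for 41 named genes, with the dashed line where both are equal. The 23 purple genes had an interaction adjusted p under 0.05 and the 18 grey genes did not; Spp1 lies farthest from the line, at the upper left.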

How the data were processed

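Tumor Tregs of 4 mice were measured by RNA sequencing in an OX40plus and an OX40minus gate, with 2 libraries each. Per the labels' protocols, RNA was extracted with the RNeasy Micro kit and libraries were made with the TruSeq RNA kit. Per the submitters' processing notes, bcl2fastq 2.19, kallisto, limma and mm10 were used; how transcripts were summed to genes, the strand setting and the scaling were not stated in any source consulted. The deposited values fit log2 CPM with 0.5 added to each count. Estimated counts were computed from each library's lowest value. Only 43.3% to 45.9% of them came out whole within 0.01, so no count model was used.

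The libraries of a sample were averaged, and 10437 of 13103 genes were kept (at least 0.883 CPM, which is 10 counts in the smallest tumor library, in at least 4 of 8 samples). The test was limma 3.58.1 in R 4.3.3 with a mean-variance trend and empirical Bayes moderation on the log2 values of the 8 tumor samples, with Benjamini-Hochberg adjustment, called at an adjusted p under 0.05. It was tested on simulated data. A value after ± is an SE for a log2 fold change and an SD over 4 mice for CPM, and levels are not divided by transcript length, so they are compared within a gene. The gates of a mouse are paired by its number in the titles. Deviations of the gates of a mouse from their group means correlated at 0.075, -0.0698, 0.0295 and 0.0317. Those of gates from different mice correlated at -0.0843 to 0.065. The fit with the mouse as a block is an alternative.

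The members and gene lists were chosen with earlier results of these data known. Named genes are the 12 highest and 12 lowest log2 fold changes among called genes without overlap and with a mean of at least 10 CPM in the higher group, the 10 called genes of highest level, from every list as many as 4 called members ranked by adjusted p, and 20 preset genes. The rankings left out Tnfrsf4, antigen receptor segments, mitochondrial and predicted genes. Genes of printed promoters followed the rule given there. Other genes (Aldoc, Cdt1, Cx3cr1, Hspa1a, Hspa1b, Il1rn, Isg20, Satb1, Slc2a3 and Tnip3 among them) were chosen after their values were seen. Some genes that the rule names are not reported here. Gene positions and promoters are RefSeq's for GRCm38.p6. Alternatives were other scalings, filters, pseudocounts and fits, single libraries and leaving out each sample.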

Additional observations from a re-analysis of the deposited data

Results flagged for a closer look

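In 17 of 342 groups of 4 samples (4.97%) of the genes named in the report, 1 sample lay apart from the other 3 by Dixon's criterion (the gap to the nearest sample over the group's range). Chance flags about 1 in 20 groups, which is close to this share. The sample was higher than the rest for Aldoc in OX40plus mouse 1 (82.3 CPM, others 63.1 to 66.3), Cdk1 in OX40minus mouse 2 (78.9 CPM, others 64.3 to 66.8), Cdk4 in OX40minus mouse 2 (197 CPM, others 181 to 182) and Gbp9 in OX40plus mouse 2 (128 CPM, others 92.2 to 93.0). It was also higher for H1f5 in OX40plus mouse 1 (46.6 CPM, others 24.4 to 26.3), Mcm6 in OX40minus mouse 2 (488 CPM, others 414 to 420.1), Nr1d1 in OX40minus mouse 4 (20.9 CPM, others 14.8 to 15.1) and Nr1d2 in OX40minus mouse 1 (68.6 CPM, others 58.2 to 59.9). The same held for Shmt2 in OX40plus mouse 3 (221 CPM, others 167 to 176), Spp1 in OX40minus mouse 4 (10.7 CPM, others 5.04 to 5.84), Tnfrsf26 in OX40plus mouse 4 (8.39 CPM, others 3.07 to 3.61), Top2a in OX40minus mouse 2 (291 CPM, others 224 to 232) and Tpx2 in OX40plus mouse 2 (212 CPM, others 186 to 189.7). It was lower than the rest for Cd96 in OX40plus mouse 1 (10.1 CPM, others 17.3 to 18.7), Il2ra in OX40minus mouse 2 (884 CPM, others 993 to 1013), Pkm in OX40minus mouse 4 (3332 CPM, others 3686 to 3744) and Tnfrsf25 in OX40plus mouse 2 (11.5 CPM, others 21.7 to 23.0). OX40minus mouse 2 held 5 of these values, of which 4 were cell cycle genes, and OX40plus mouse 4 held 1.

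For 23 of 41 genes of the rankings and the fixed set, the OX40 difference in tumors was unlike that in spleens by the interaction of gate and tissue (limma, adjusted p under 0.05 over 11378 genes). Given as the log2 fold change in tumors minus that in spleens, it was above 0 for Acaa1b (2.94), Spp1 (4.67), Shmt1 (1.29), Slc4a11 (2.27) and Il2ra (0.80). It was below 0 for Il1r2 (-0.88), St8sia6 (-3.73), Slc28a2b (-3.58), Gbp2b (-1.80), Tcf7 (-3.41), Prg4 (-2.55), Evl (-2.71), Nrp1 (-1.89), Tnfrsf4 (-0.69), Pdcd1 (-1.21), Klf2 (-1.49), Ccr8 (-1.48), Il10 (-1.69), Irf7 (-0.83), Ctla4 (-0.67), Icos (-0.71), Tnfrsf9 (-1.67) and Tnfrsf18 (-0.74).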

How the results depend on the processing

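Of the 184 called genes that the naming rule picked, 176 kept their call in all 18 alternative settings of the tumor comparison. The other 8 lost it in at least 1, and none changed direction. The 8 were Bnip3l, Ccdc14, Ccl5, Col1a2, Foxp3, Gimap1, Hba-a2 and Igfbp3, of which Bnip3l and Gimap1 are not reported above. Called genes reported above outside that rule also lost their call in at least 1 setting. Aldoc, Areg, Furin, Gzmc, Hspa1a, Hspa1b and Isg20 were among them. Icos and Tnfrsf18 gained a call in some. The count of 4151 called genes was 4112 with the mouse as a block (paired fit), of which 3944 were shared, 3994 without a filter, 4156 with the stricter filter of 1 CPM, 4142 with library size alone, 4149 with median-of-ratios scaling, 4151 with limma-voom, 4737 with all 14 samples, 4076 and 4044 with the first and second library alone and 4249 with log2 of CPM + 1. Leaving out single samples gave 3486 (without OX40minus mouse 4) to 4232 (without OX40plus mouse 1). The higher calls among them numbered 1808 to 2116 and the lower calls 1678 to 2116. With the mouse as a block, 2080 were higher and 2032 lower. The interaction with tissue was called for 1415 genes, for 1033 with the mouse as a block, and for 831 to 1683 when single samples were left out; it fell to 831 without spleen OX40plus mouse 1 and to 877 without spleen OX40minus mouse 2, and the cause was not tested. Depth limits genes under 0.104 to 0.130 CPM, which is 3 counts, and this covers counting error only.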

Other observations

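Further families were listed after the results had been seen, so their counts describe these samples only, beside 20.4% of all genes called higher and 19.4% lower. Enzymes of serine, folate and single-carbon metabolism gave 13 higher and 0 lower calls among 19 genes (median log2 fold change 0.79). Mthfd1, which interconverts folate forms in the cytosol, was at 137, 141, 158 and 142 CPM in OX40plus Tregs of mice 1 to 4 against 43.1, 53.5, 55.7 and 44.7 CPM in OX40minus Tregs (1.56 ± 0.11 SE, adjusted p = 7.51e-07, limma). Of 27 nucleotide synthesis genes 24 were higher and 1 lower (median 0.80), with thymidylate synthase, Tyms, at 174 ± 30.7 against 72.6 ± 7.83 CPM (1.25). Genes of homologous recombination and the Fanconi pathway, which repair broken or crosslinked DNA, were higher in 23 of 29 cases (median 1.02). Brca1 was at 63.5, 69.8, 52.9 and 59.2 CPM against 14.9, 25.0, 16.4 and 22.6 CPM (1.66 ± 0.18 SE, adjusted p = 1.4e-05). All 3 tested metallothioneins, which bind zinc and copper, were higher, with Mt1 at 211, 220.2, 251 and 335 CPM against 73.3, 105, 77.0 and 85.2 CPM (1.57 ± 0.15 SE, adjusted p = 6.06e-06).

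Of 17 chemokine ligand genes 11 were lower and 2 higher (median -1.76). The higher pair was Ccl3 (81.7, 66.9, 85.2 and 84.4 CPM against 25.5, 35.8, 31.9 and 28.9 CPM, 1.39 ± 0.14 SE, adjusted p = 7.44e-06) and Ccl4 (261 ± 32.6 against 102 ± 7.03 CPM, 1.35), which encode inflammatory chemokines. Cxcl10, an interferon-induced ligand, was at 34.2, 18.8, 35.4 and 31.1 CPM against 106, 96.7, 153 and 107 CPM (-1.97 ± 0.20 SE, adjusted p = 1.01e-05). The macrophage markers described in the report were lower in the same samples, and their part in these ligand differences was not tested. MS4A family genes, which encode membrane proteins, were lower in 8 of 9 cases (median -1.79), with Ms4a4b at 11.6, 4.44, 5.26 and 9.77 CPM against 76.2, 55.3, 76.3 and 69.2 CPM (-3.30 ± 0.29 SE, adjusted p = 2.89e-06). Its member Ms4a7 is also among the macrophage markers, and the part of macrophages in this family's difference was not tested. The interferon-induced PYHIN genes were lower in 9 of 11 cases (median -1.01), and they hold close copies that make single members uncertain. KLF transcription factor genes were lower in 8 of 11 cases (median -0.83), with Klf13 at 121 ± 13.9 against 229 ± 17.4 CPM (-0.92). Cathepsins and cystatins split, with 3 of 12 higher and 7 lower. Ctsz, a lysosomal protease gene, was at 799, 795, 843 and 824 CPM against 305, 316, 357 and 308 CPM (1.35 ± 0.07 SE, adjusted p = 1.15e-07), and Cst7, a cystatin gene, at 285 ± 20.5 against 112 ± 14.7 CPM (1.36).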
